A study of Mus musculus with 18 samples.

Results

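Peroxisomal and microsomal target genes of PPAR-alpha were followed in the liver of mice kept for most of their adult life on a low-fat or a high-fat diet, with or without calorie restriction or a running wheel. The genes were chosen by name as 9 textbook targets: Ehhadh, Eci2, Crot, Abcd3, Abcd2, Pex11a, Cyp4a10, Cyp4a14 and Vnn1. They are 9 of the 18193 genes that the array's annotation names, and 16 of its 45037 probe sets that are not controls. All mice were male C57BL/6J, an inbred laboratory strain, and their liver was taken at 62 weeks of age. Diets began at 5 weeks, after a week on low-fat food that all mice shared, and every mouse lived alone in its cage. The LF group ate a diet with 10% fat without limit, and the HF group a diet with 60% fat. The LF+CR and HF+CR groups received 30% less of the same food than the LF and HF mice had eaten. The LF+Ex and HF+Ex groups ate without limit and ran on a wheel when they chose to. Total RNA of 3 mice in each of the 6 groups was hybridised to 18 Affymetrix Mouse Genome 430 2.0 arrays, 1 per mouse. The study asks how dietary fat, restriction and running set hepatic expression late in life, and whether either intervention acts differently on the 2 diets. When in the day the livers were taken, and whether the mice had eaten, is not stated, and these genes are known to depend on both.

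PPAR-alpha is a nuclear receptor that binds fatty acids and, paired with the receptor RXR, switches on genes of fatty acid breakdown in hepatocytes, most of all during fasting. Peroxisomes shorten fatty acids that mitochondria handle poorly, such as very long, branched and dicarboxylic chains. The shortened chains leave as carnitine esters or free acids. In the endoplasmic reticulum, seen as microsomes in fractionated liver, Cyp4a enzymes hydroxylate the far (omega) end of a fatty acid, and the dicarboxylic acids that follow are sent to peroxisomes. Rodents given a PPAR-alpha agonist multiply their hepatic peroxisomes, and Cyp4a10, Cyp4a14, Ehhadh and Pex11a are classic reporters of that response.

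Promoter sequences were at hand for 5 of the 9 genes (RefSeq, build GRCm38.p6). Those of 4 are given here as the 250 bases before the transcription start, 5′ to 3′ on the gene's strand. Pex11a, Crot and Eci2 were lower together in restricted mice on the low-fat diet, and Ehhadh was not. They lie on the minus strand at chr7:79743132-79743381 (Pex11a), chr5:8997147-8997396 (Crot), chr13:34994145-34994394 (Eci2) and chr16:21787835-21788084 (Ehhadh). Capitals mark CCAAT boxes (CCAAT, or ATTGG on the other strand) and GC boxes (GGGCGG, or CCGCCC).
Pex11a: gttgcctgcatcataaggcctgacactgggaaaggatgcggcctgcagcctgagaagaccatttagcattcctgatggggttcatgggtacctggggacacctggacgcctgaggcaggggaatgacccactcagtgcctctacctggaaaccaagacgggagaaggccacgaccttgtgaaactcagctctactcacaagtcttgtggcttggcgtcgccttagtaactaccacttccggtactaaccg
Crot: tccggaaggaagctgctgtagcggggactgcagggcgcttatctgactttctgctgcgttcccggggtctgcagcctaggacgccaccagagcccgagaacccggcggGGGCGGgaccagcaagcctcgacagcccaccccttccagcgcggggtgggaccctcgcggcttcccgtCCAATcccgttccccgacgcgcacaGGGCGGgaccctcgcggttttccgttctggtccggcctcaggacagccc
Eci2: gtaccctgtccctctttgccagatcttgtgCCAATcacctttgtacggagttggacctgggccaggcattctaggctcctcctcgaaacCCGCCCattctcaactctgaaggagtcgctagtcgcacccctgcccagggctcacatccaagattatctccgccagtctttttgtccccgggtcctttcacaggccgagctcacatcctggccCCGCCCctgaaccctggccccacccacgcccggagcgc
Ehhadh: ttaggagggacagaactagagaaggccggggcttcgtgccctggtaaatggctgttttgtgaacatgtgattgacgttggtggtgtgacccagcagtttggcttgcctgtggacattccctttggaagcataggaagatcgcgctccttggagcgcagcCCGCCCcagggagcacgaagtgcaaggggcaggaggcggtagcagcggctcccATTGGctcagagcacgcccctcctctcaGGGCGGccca
Crot, Eci2 and Ehhadh each held 1 CCAAT box and 2 GC boxes, and Pex11a held neither. Of all 32851 promoters in the table, 33.8% had a CCAAT box and 32.7% a GC box in the same window. The element that PPAR-alpha and RXR bind together is a direct repeat, AGGTCANAGGTCA, with a spacer of 1 base. Searched on both strands in the 300 bases from 250 before to 50 after the start, it matched in none of the 6 promoters of the 5 genes with 2 or fewer mismatches, against 3.86% of all promoters. The single hexamer AGGTCA was also absent from the 250 bases upstream in all 6, against 14.0% of all promoters. GC content of the printed stretches was 55.6% for Pex11a, 69.6% for Crot, 61.2% for Eci2 and 60.4% for Ehhadh, against a median of 52.4%. The 3 genes printed here that fell together thus did not share these short motifs, and Ehhadh, which did not fall with them, had the same ones as Crot and Eci2. Abcd3, which did not fall either, held neither a CCAAT nor a GC box, as Pex11a. No promoter was at hand for Vnn1, which also fell. Elements outside the stretches searched would not have been found.

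Intensities ranged from 31.08 to 21653.9, and array means from 305 to 308. Hepatocyte markers were high on every array, with a summed intensity of 72604 to 81393 over 7 of 8 markers. Pancreatic acinar transcripts stood out on 4 arrays, where the summed intensity of 7 of 9 markers was 2643 (LF 1), 3412 (LF+CR 1), 1794 (LF+Ex 3) and 4688 (HF+Ex 1), against 758 to 1054 elsewhere. On the first principal component of all genes 3 arrays stood away from the rest, LF+CR 2 at 23.6, HF 1 at 21.1 and HF+Ex 3 at 19.1, against -14.4 to 8.52 elsewhere, and they are called the outlying arrays. For members with a probe set of their own, the changes under restriction and between the restricted groups that passed the test are given without these sets of arrays where the call was lost or the value moved by over 1.5 times. None of the 4 arrays with pancreatic transcripts is in HF or HF+CR, so without them HF+CR against HF keeps its value and only its test changes. Between the restricted groups the only pancreatic array is LF+CR 1 and the only outlying one LF+CR 2. There the value without either set is thus that without this 1 array. Since the time of day is unknown, a fit with a clock covariate (log2 Arntl minus log2 Dbp, 2 genes of the circadian clock) is named where it changed a call. A change in such bulk tissue can come from fewer cells of a type or from less RNA per cell, and these cannot be told apart.

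Of the 16 probe sets, 15 named 1 gene. Cyp4a10 had only a probe set that it shares with Cyp4a31, a close copy, so that its signal belongs to neither gene alone. The other 8 genes passed the filter on dim genes, and each was represented by its brightest probe set. Changes are log2 fold changes of intensity plus 16 with their standard error (SE), from 1 limma fit to all 18 arrays, and a gene changed if its p, adjusted over 14201 genes by Benjamini-Hochberg, was under 0.05. Unnamed numbers that follow a change in brackets are its adjusted p.

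**Figure D1:**
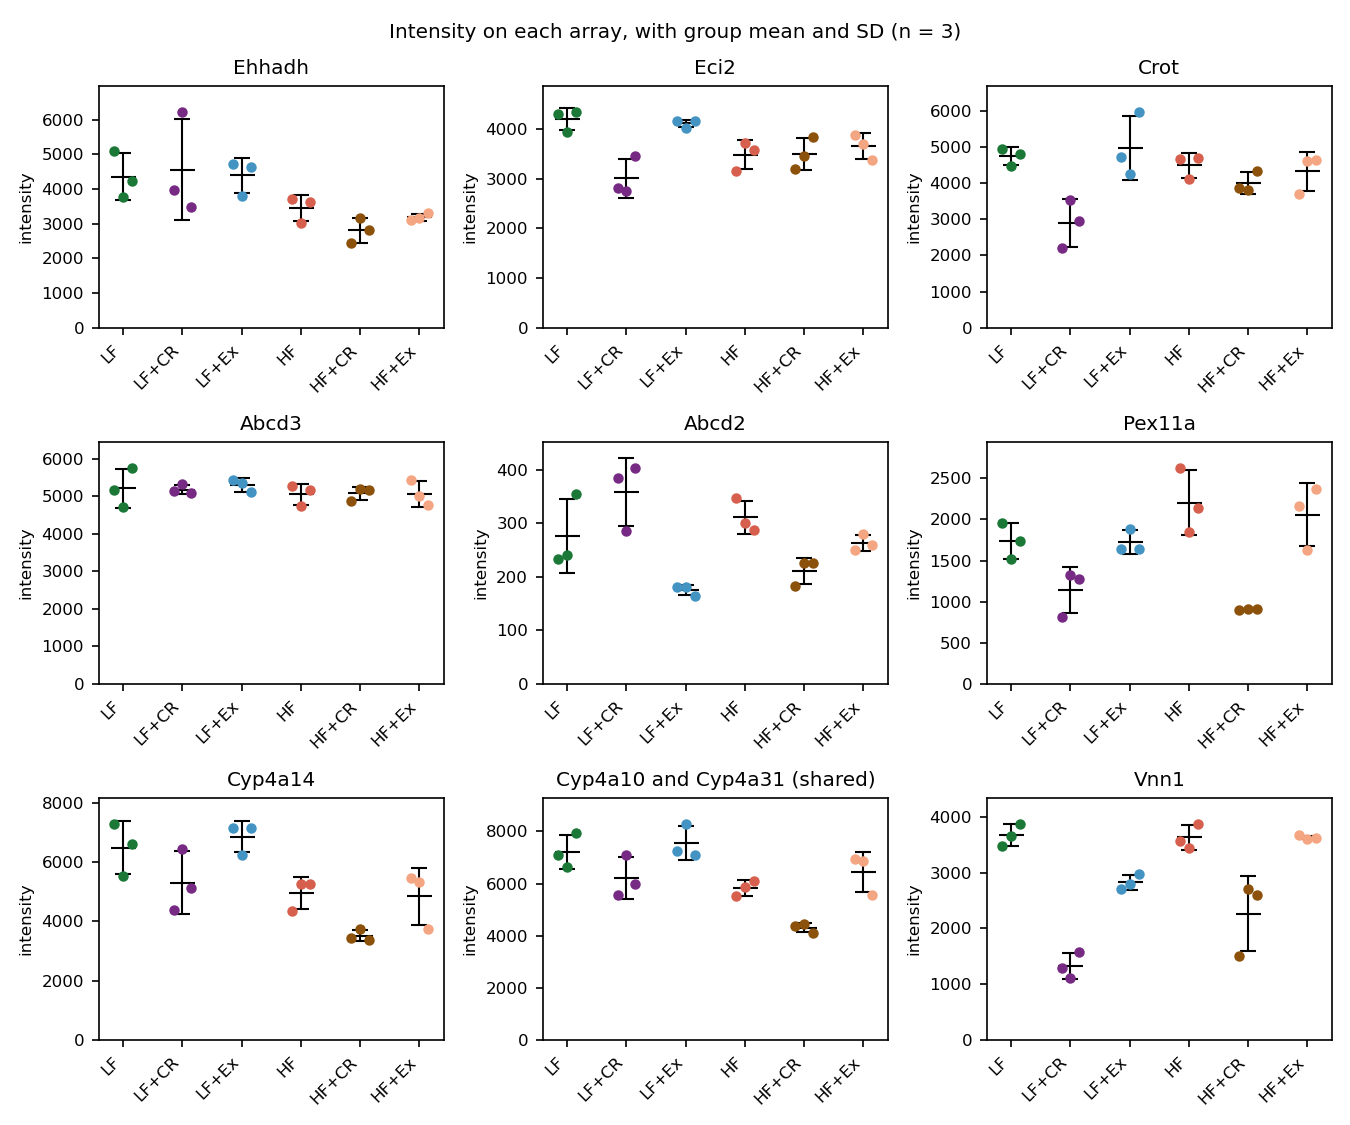
Intensity of each gene on each array, in 9 panels with linear axes from 0, by group on the horizontal axis. Points are single mice, and bars are the mean and SD of 3. Vnn1 and Pex11a are low in the restricted groups, Ehhadh and Cyp4a14 are lowest in HF+CR, and Abcd3 stays between 4704 and 5759 on all arrays.

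Restriction lowered members on both diets, and Pex11a and Vnn1 passed on each. On the low-fat diet 4 of the 8 were lower in LF+CR than in LF and none was higher, where 3.27% of all tested genes were lower and 2.3% higher. The 4 were Vnn1, Crot, Pex11a and Eci2, and they were also the 4 whose groups did not overlap, against 20.2% of all genes. On the high-fat diet 3 were lower in HF+CR than in HF (Pex11a, Vnn1 and Abcd2) and none was higher, against 2.55% and 3.52% of all genes. For these 3 and for Cyp4a14 the groups did not overlap, against 31.3%. The median log2 fold change of the 8 was -0.39 on each diet, beside -0.01 (low-fat) and 0.04 (high-fat) for all genes. Between the restricted groups, HF+CR had 3 lower members than LF+CR (Abcd2, Ehhadh and Cyp4a14) and 1 higher member (Vnn1), against 3.31% and 5.62%. For 4 of 8 members the restricted groups did not overlap, against 27.1%. The effect of restriction itself differed between the diets for 2 members, lower on the high-fat diet for Abcd2 and higher for Eci2, against 2.39% and 3.35%. In fits of only the groups compared, several of these calls were lost: Crot (adjusted p = 0.0845) and Eci2 (0.0788) beside Pex11a on the low-fat diet, Vnn1 (0.0875) on the high-fat diet, Ehhadh (0.142), Vnn1 (0.142) and Cyp4a14 (0.0724) between the restricted groups, and Abcd2 (0.0530) and Eci2 (0.0845) for the difference of effects. Abcd3 passed in none of the 9 comparisons, and the other 7 genes passed in at least 1.

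**Figure D2:**
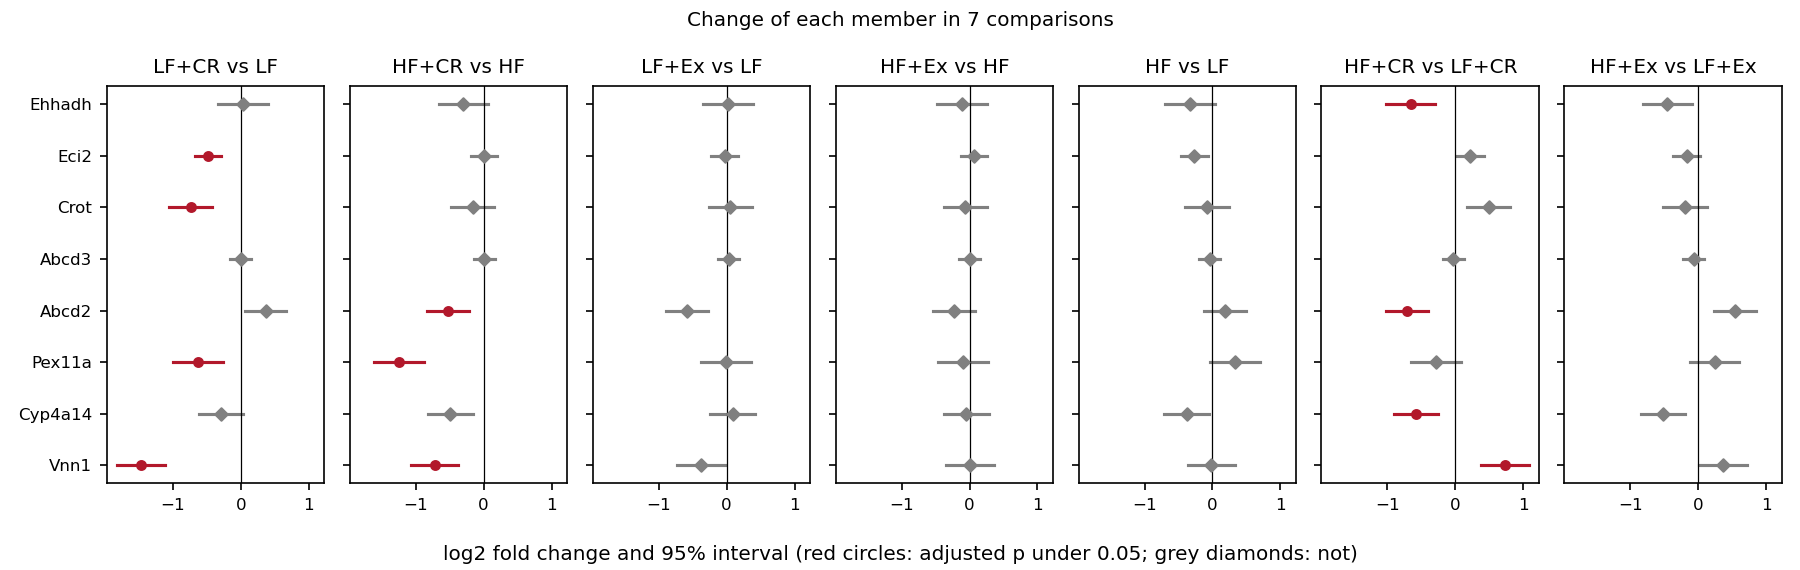
Log2 fold change (point) and 95% interval (line) of 8 genes, by row, in 7 comparisons, by panel, on 1 shared horizontal axis. Red circles have an adjusted p under 0.05 and grey diamonds do not. Vnn1 in LF+CR against LF (-1.47) and Pex11a in HF+CR against HF (-1.25) lie farthest from 0, and the panels of running and of HF against LF hold no red circle.

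Ehhadh (probe set 1448382_at) encodes the bifunctional enzyme that carries out the hydratase and dehydrogenase steps of peroxisomal beta-oxidation. Its intensity was 5083, 3761 and 4221 in LF, 3983, 6224 and 3481 in LF+CR, and 4729, 3805 and 4645 in LF+Ex. On the high-fat diet it was 3704, 3022 and 3616 in HF, 2440, 3163 and 2815 in HF+CR, and 3112, 3156 and 3303 in HF+Ex. The high-fat groups were the 3 lowest, and within each condition (no intervention, restriction or running) no high-fat array reached the lowest low-fat array. The median over 9 mice was 4221 on the low-fat and 3156 on the high-fat diet, although single mice of the 2 diets overlapped across conditions. The difference passed in HF+CR against LF+CR (-0.66 ± 0.17 SE, adjusted p = 0.0256) and not in HF against LF (-0.33 ± 0.17, 0.355) or HF+Ex against LF+Ex (-0.45 ± 0.17, 0.210). Restriction gave 0.03 ± 0.17 on the low-fat and -0.30 ± 0.17 on the high-fat diet, and neither passed. LF+CR 2, the highest array of all, carried part of the diet difference: without it the value was -0.41 (adjusted p = 0.0972). The call was also lost without HF+CR 1 (-0.56, 0.0987), without HF+CR 3 (-0.67, 0.0646), without the 4 arrays with pancreatic transcripts (-0.74, 0.0636) and without the 3 outlying arrays (-0.41, 0.110). The last 2 fits take only LF+CR 1 and LF+CR 2 from the groups compared, so their values are those without these single arrays.

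Eci2 (1431012_a_at) encodes an enoyl-CoA isomerase that shifts double bonds so that unsaturated chains can pass through beta-oxidation. Its intensity was 4310, 3937 and 4346 in LF and 2812, 2763 and 3463 in LF+CR, with no overlap. In HF and HF+CR it was 3156, 3727 and 3580 and 3202, 3448 and 3845, which overlap throughout. It lay between 4020 and 4159 in LF+Ex and between 3375 and 3890 in HF+Ex. Restriction lowered it by a log2 value of -0.48 ± 0.09 on the low-fat diet (adjusted p = 0.00579) and left 0.00 ± 0.09 on the high-fat diet, where the 95% interval ran from -0.19 to 0.20. The difference between these effects was 0.49 ± 0.13 (adjusted p = 0.0405). The fall on the low-fat diet kept its call without each array in turn, but not without the 4 pancreatic arrays (-0.42, 0.121). The difference between diets lost its call without any 1 of LF 1, LF 3, LF+CR 1, LF+CR 2, HF 1, HF 3, HF+CR 2 and HF+CR 3 (0.42 to 0.51, adjusted p from 0.0641 to 0.118), without the pancreatic arrays (0.42, 0.166), without the 3 outlying arrays (0.36, 0.199) and with arrays centred on their medians (0.42, 0.0823).

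Crot (1450966_at) encodes carnitine O-octanoyltransferase, which turns shortened acyl-CoAs into carnitine esters for export from the peroxisome. It read 4956, 4466 and 4816 in LF and 2195, 3524 and 2953 in LF+CR, so that every restricted mouse was below every unrestricted one. In HF it read 4663, 4104 and 4700 and in HF+CR 3857, 3811 and 4343, which overlap. With running the range was 4242 to 5970 in LF+Ex and 3706 to 4646 in HF+Ex. The change under restriction was -0.74 ± 0.15 on the low-fat diet (adjusted p = 0.00814) and -0.16 ± 0.15 on the high-fat diet (0.502), and the test of the difference gave 0.57 ± 0.21 (0.119), or 0.36 (0.175) without the pancreatic arrays. The fall on the low-fat diet passed without each array and without the pancreatic arrays (-0.52, 0.0341). HF+CR was higher than LF+CR without overlap (0.49 ± 0.15), which did not pass (0.0524). That value passed without LF+CR 2 (0.65, 0.0169), without the outlying arrays (0.65, 0.0232) and with the clock covariate (0.42, 0.0279), and was 0.31 without LF+CR 1 (0.208) and without the pancreatic arrays (0.0985). The other Crot probe set, 1440474_at, was above the dim threshold on 9 of 18 arrays and showed 0.02 ± 0.07 and 0.09 ± 0.07 under restriction.

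Abcd3 and Abcd2 encode transporters that bring fatty acyl-CoAs into the peroxisome. Abcd3 (1416679_at), an abundant peroxisomal membrane protein of the liver, had group means from 5060 ± 282 (SD, n = 3) in HF to 5305 ± 176 in LF+Ex, a ratio of 1.05. Each neighbouring pair in that order overlapped, and every one of its 7 changes between groups lay between -0.07 and 0.03. The 95% interval of its change under restriction ran from -0.16 to 0.15 on the low-fat and from -0.15 to 0.16 on the high-fat diet. Its other probe set was at or below the dim threshold on every array.

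Abcd2 (1438431_at) is a relative of the adrenoleukodystrophy transporter that carries very long and polyunsaturated chains. Under restriction its mean was higher on the low-fat and lower on the high-fat diet, and only the fall passed. It read 233, 240 and 355 in LF and 385, 285 and 403 in LF+CR. In HF it read 346, 300 and 287, above 182, 226 and 225 in HF+CR. Running mice read 181, 180 and 164 (LF+Ex) and 250, 279 and 259 (HF+Ex). At this probe set the groups thus ran from LF+CR, the highest, through HF, LF and HF+Ex, which overlap in turn. HF+CR and LF+Ex were lowest and overlap neither with HF+Ex nor with each other, though 182.43 (HF+CR 1) lay just above 181.42 (LF+Ex 1). HF+CR and LF+Ex overlapped at the probe sets 1419748_at and 1456812_at, and at 1456812_at HF+CR also overlapped with HF+Ex. Restriction gave 0.37 ± 0.14 on the low-fat diet (adjusted p = 0.172) and a fall of -0.53 ± 0.14 on the high-fat diet (0.0429), and the effects differed by -0.89 ± 0.20 (0.0186). HF+CR was lower than LF+CR by -0.71 ± 0.14 (0.00647), a call that held without each array, without the pancreatic arrays (-0.65, 0.0494) and without the 3 outlying arrays (-0.86, 0.00356). The fall from HF to HF+CR lost its call without any 1 of its 6 arrays (-0.58 to -0.43, adjusted p from 0.0519 to 0.183). It was also lost without the outlying arrays (0.105) and with no dim filter (0.0501). Without the pancreatic arrays, none of which is in HF or HF+CR, its value stayed at -0.53 but did not pass (0.0745). The difference of effects lost its call without HF 1 (-0.82, 0.0577) and without the pancreatic arrays (-0.73, 0.121). LF+CR against LF passed without LF 3 (0.55, 0.0282) and was 0.21 (0.672) without the pancreatic arrays. A second probe set, 1419748_at, gave 0.51 ± 0.15 (not passed) and -0.70 ± 0.15 (adjusted p = 0.0154) for restriction and -1.21 ± 0.21 (0.00415) for the difference, and it was higher in HF+Ex than in LF+Ex (0.66 ± 0.15, 0.0415). A further one, 1456812_at, gave -0.14 ± 0.14 and -0.49 ± 0.14 and did not pass, so that the higher level on the low-fat diet was not seen there. Between the restricted groups 1419748_at passed (-0.84 ± 0.15, 0.00276), but 1456812_at overlapped and did not (-0.26 ± 0.14, 0.307). The difference of effects did not pass at 1456812_at either (-0.35 ± 0.20, 0.314). The last, 1439835_x_at, was above the dim threshold on 2 of 18 arrays.

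Pex11a encodes a peroxin that elongates and divides peroxisomes and is the inducible form in the liver. Probe set 1449442_at read 1951, 1517 and 1733 in LF and 817, 1324 and 1271 in LF+CR. It read 2627, 1847 and 2135 in HF and 904, 909 and 904 in HF+CR. That spread is the narrowest of the 6 groups for this probe set only: the second, 1419365_at, read 552, 855 and 741 on the same arrays, its widest relative spread. The running groups spanned 1638 to 1889 (LF+Ex) and 1632 to 2373 (HF+Ex), overlapping with the LF and HF groups. No restricted mouse reached the lowest mouse that ate without limit. The change was -0.63 ± 0.17 on the low-fat diet (adjusted p = 0.0458) and -1.25 ± 0.17 on the high-fat diet (0.000946), 0.420-fold of HF. The larger size on the high-fat diet was not established, since the difference of effects was -0.63 ± 0.24 (0.138), and among the alternatives run passed only without LF+CR 1 (-0.85, 0.0337). It was -0.37 (0.495) without the outlying arrays. The high-fat change kept its call without each array and without either set of arrays. The low-fat change lost it without LF 1 (-0.54, 0.150), LF 2 (-0.72, 0.0531), LF 3 (-0.62, 0.115) or LF+CR 1 (-0.41, 0.186) and without the pancreatic arrays (-0.32, 0.433), in a fit of LF and LF+CR alone (0.195), with arrays centred on their medians (0.0688), with no dim filter (0.0586) and with the clock covariate (-0.60, 0.0597). The second probe set gave -0.72 ± 0.17 (adjusted p = 0.0196 over all probe sets) and -0.91 ± 0.17 (0.00679). Its difference of effects was smaller, -0.19 ± 0.23 (0.645).

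Cyp4a14 (1423257_at) is a microsomal fatty acid omega-hydroxylase. It read 7286, 5518 and 6622 in LF, 4365, 6445 and 5113 in LF+CR, and 7162, 6243 and 7145 in LF+Ex. It read 4338, 5264 and 5259 in HF, 3430, 3730 and 3371 in HF+CR, and 5454, 5341 and 3737 in HF+Ex. HF+CR was the lowest group and did not overlap with any other, although its highest array (3730) lay just below HF+Ex 3 (3737), an outlying array. Within each condition the high-fat mice were below the low-fat mice. HF+CR was lower than LF+CR by -0.58 ± 0.15 (adjusted p = 0.0277). HF against LF (-0.38 ± 0.15, 0.240), HF+Ex against LF+Ex (-0.52 ± 0.15, 0.0993), LF+CR against LF (-0.30 ± 0.15, 0.332) and HF+CR against HF (-0.49 ± 0.15, 0.0710) did not pass. The call between the restricted groups was lost without LF+CR 2 (-0.43, 0.129), HF+CR 1 (-0.56, 0.0766), HF+CR 2 (-0.62, 0.0516) or HF+CR 3 (-0.55, 0.0831), and held without the pancreatic arrays (-0.71, 0.0288). LF+CR against LF passed without the outlying arrays (-0.44, 0.0372) and was -0.07 (0.911) without the pancreatic arrays. HF+CR against HF passed without the outlying arrays (-0.58, 0.00980), in a fit of those groups alone (0.0276), with the clock covariate (0.0449) and with arrays centred on their medians (0.0481).

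The probe set shared by Cyp4a10 and Cyp4a31 (1424853_s_at), both microsomal omega-hydroxylases, followed a like order. It read 7094, 6625 and 7930 in LF, 5548, 7099 and 5967 in LF+CR, and 7255, 8291 and 7107 in LF+Ex. On the high-fat diet it read 5503, 5884 and 6112 in HF, 4366, 4442 and 4099 in HF+CR, and 6939, 6863 and 5556 in HF+Ex. Tested among all 29336 probe sets above background, it was lower in HF+CR than in LF+CR (-0.52 ± 0.10, adjusted p = 0.00577) and than in HF (-0.44 ± 0.10, 0.0256), where 8.23% and 5.07% of those probe sets passed in either direction. The HF+CR arrays overlapped with those of no other group. A probe set of Cyp4a31 alone was 646 ± 270 in LF+CR and 313 ± 44.4 in HF+CR (-0.94 ± 0.23, adjusted p = 0.0169) and did not pass in HF+CR against HF (-0.42 ± 0.23, 0.264). How much of the shared signal comes from Cyp4a10 was not measured.

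Vnn1 encodes vanin 1, a pantetheinase at the cell surface that splits pantetheine into vitamin B5 and cysteamine. It is neither peroxisomal nor microsomal, and is a target that follows PPAR-alpha activity closely in liver. Its probe set 1418486_at read 3476, 3658 and 3875 in LF and 1286, 1111 and 1570 in LF+CR, a ratio of means of 2.77, the largest between groups of any member. In HF it read 3575, 3445 and 3871 and in HF+CR 1495, 2702 and 2596. LF+Ex read 2702, 2802 and 2972, and HF+Ex 3669, 3606 and 3620. The order was LF, HF+Ex and HF, which overlap, then LF+Ex, whose lowest mouse lay above the highest of HF+CR by less than 1 unit, then HF+CR and LF+CR, which overlap through HF+CR 1. Restriction lowered Vnn1 by -1.47 ± 0.17 on the low-fat diet (adjusted p = 9.99e-05) and by -0.72 ± 0.17 on the high-fat diet (0.0192), and HF+CR stayed higher than LF+CR by 0.73 ± 0.17 (0.0116). The difference of effects, 0.75 ± 0.23, did not pass (0.0715), but did without LF+CR 3 (0.88, 0.0360) or HF+CR 1 (1.02, 0.00118). The low-fat change held without each array and without either set. The high-fat change was lost without HF 1 (-0.73, 0.0659) or HF 3 (-0.68, 0.0688) and was -0.45 (0.0360) without HF+CR 1. Without the pancreatic arrays, none of which is in HF or HF+CR, its value stayed at -0.72 but did not pass (0.0579). The difference between the restricted groups was lost without LF+CR 2 (0.62, 0.0559), HF+CR 2 (0.58, 0.0578), HF+CR 3 (0.61, 0.0582), the pancreatic arrays (0.72, 0.0773) or the outlying arrays (0.62, 0.0765). The second probe set, 1447845_s_at, gave -1.72 ± 0.22 (adjusted p = 0.000333) and -1.01 ± 0.22 (0.0198) under restriction. There HF+CR against LF+CR gave 0.64 ± 0.22 and did not pass (0.0940), and neither did the difference of effects (0.71 ± 0.32, 0.194).

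Some markers of other cells moved with restriction too. Of the 3 erythroid markers tested, Alas2, the erythroid enzyme that starts heme synthesis, fell in LF+CR (-1.10), and Alas2 (0.49) and Slc4a1 (0.38) rose in HF+CR. The median change of the 3 was 0.10 in LF+CR, so that the fall of Alas2 was not shared by the other markers tested. The summed erythroid intensity was 647 to 730 in LF+CR against 1068 to 1242 in LF, and 1410 to 1548 in HF+CR against 1011 to 1106 in HF. None of 8 Kupffer cell markers passed, with sums of 5391 to 6513 in HF+CR against 6839 to 10302 in HF. On the low-fat diet these sums overlapped (6615 to 11478.5 in LF+CR against 5458 to 9109 in LF). Of 6 sinusoidal endothelial markers only Lyve1 passed (-1.10 in HF+CR), and their sums were 2737 to 2867 in LF+CR against 2972 to 3224 in LF, and 2874 to 3033 in HF+CR against 3096 to 3300 in HF. Stellate cell and fibroblast sums were 4334 to 4703 in HF+CR and 4714 to 5256 in HF, with none of 7 markers passing. They overlapped between LF+CR (3681 to 5605) and LF (3788 to 4586). Cholangiocyte sums were 428 to 894 in HF+CR and 387 to 419 in HF, with none of 3 tested markers passing. These too overlapped on the low-fat diet (408 to 635 in LF+CR against 375 to 421 in LF). Hepatocyte sums were higher in the restricted groups (79064 to 81393 in LF+CR against 72888 to 77861 in LF, and 77745 to 80979 in HF+CR against 74217 to 76453 in HF). On each diet 2 of 7 markers rose, against 2.3% (LF+CR) and 3.52% (HF+CR) of all genes. No marker read 0, and the part of these cells in the changes of the members was not tested.

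Neither HF against LF nor any comparison with running mice changed a member at its brightest probe set by the limma test. In HF against LF 0 of 8 passed (2 at an unadjusted p under 0.05), where 0.894% of all genes did. For 3 of 8 members, Ehhadh, Cyp4a14 and Eci2, the HF mice were all below the LF mice, against 22.6% of genes without overlap. In HF+Ex against LF+Ex 0 passed (4 unadjusted), against 1.75%, although the second Abcd2 probe set did among all probe sets. LF+Ex against LF gave 0 (2 unadjusted) and HF+Ex against HF 0 (0 unadjusted), against 0.00704% and 0% of all genes, and the test of running by diet gave 0 (0 unadjusted), against 0.00704%. The groups of LF+Ex and LF did not overlap for 2 members, against 8.82% of all genes. These were Abcd2, lower in LF+Ex (-0.59 ± 0.14, adjusted p = 0.792), and Vnn1, also lower (-0.38 ± 0.17, 0.9997). Abcd2 also lay lower in HF+Ex than in HF without overlap, the 1 member to do so, against 8.12%. At its probe sets 1419748_at and 1456812_at the HF+Ex and HF groups overlapped. In HF+Ex against LF+Ex 5 members did not overlap, against 22.7%: Abcd2 (0.54 ± 0.14, 0.0701) and Vnn1 (0.36 ± 0.17, 0.302) were higher, and Ehhadh, Cyp4a14 and Eci2 (-0.17 ± 0.09, 0.385) lower. The 95% intervals of the changes under running on the high-fat diet reached at most 0.35 above 0 and 0.53 below it.

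**Figure D3:**
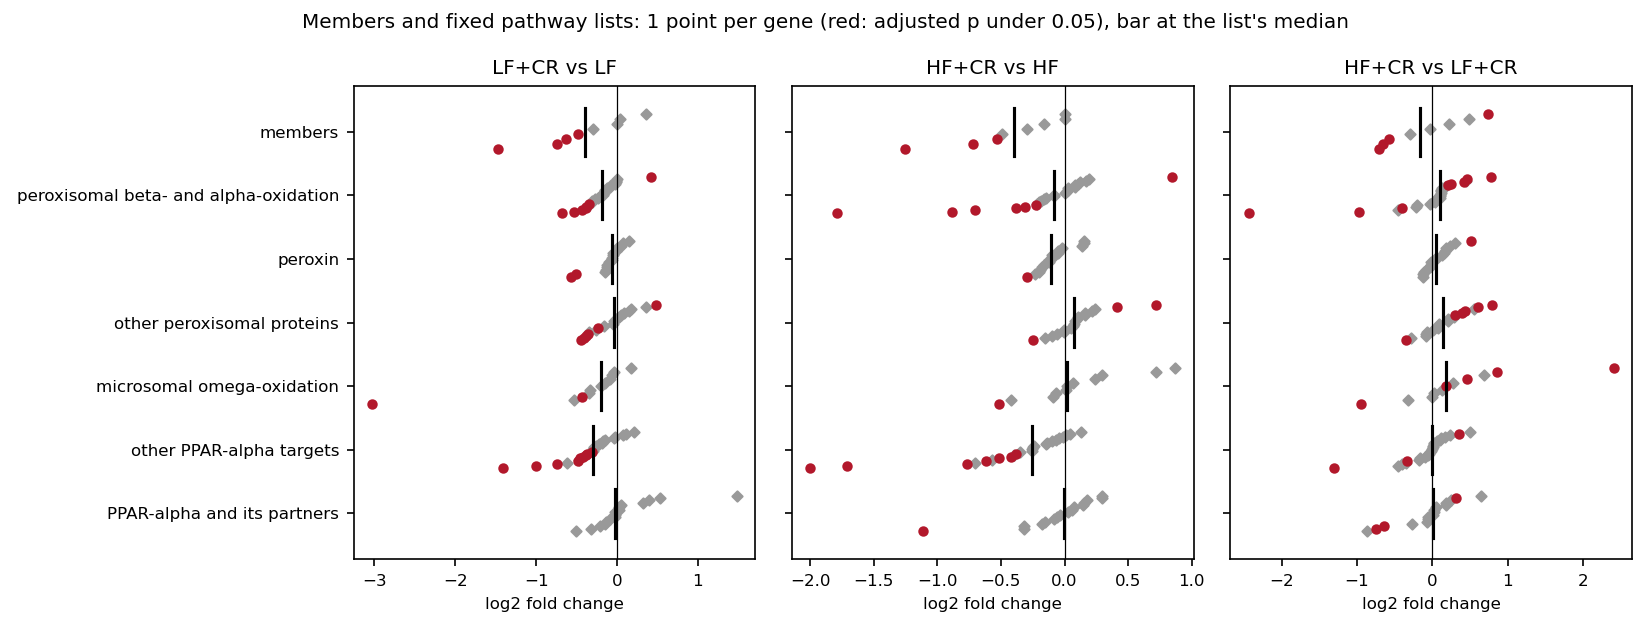
Log2 fold change of each tested gene (point) of the members and of 6 other lists, by row, for LF+CR against LF, HF+CR against HF and HF+CR against LF+CR, each panel with its own axis. Red points have an adjusted p under 0.05, and the black bar is the median of the list. The medians of the member and other-target rows lie to the left of 0 in the first 2 panels, from -0.39 to -0.26, with single genes on either side.

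The wider peroxisomal beta- and alpha-oxidation list (24 of 27 genes tested, members left out) showed 6 genes lower and 1 higher under restriction on each diet. The shares of all genes were 3.27% lower and 2.3% higher on the low-fat diet, and 2.55% and 3.52% on the high-fat diet. The list's median was -0.19 on the low-fat and -0.08 on the high-fat diet. Crat, carnitine acetyltransferase, the enzyme beside Crot in carnitine export, fell on both, from 778 ± 171 to 481 ± 106 (-0.68 ± 0.16, adjusted p = 0.0232) and from 565 ± 73.7 to 342 ± 50.1 (-0.70 ± 0.16, 0.0210). Acot3 and Acot4, peroxisomal thioesterases that release free acids from acyl-CoA, fell on the high-fat diet. Acot3 went from 867 ± 328 in HF to 242 ± 107 in HF+CR (-1.79 ± 0.35, 0.00830), with a difference of effects of -1.71 ± 0.50 (0.0557). Acot4 went from 307 ± 46.3 to 161 ± 39.1 (-0.88 ± 0.17, 0.00637), with a difference of -0.85 ± 0.23 (0.0437). Nudt7, which breaks down peroxisomal coenzyme A, rose from 3076 ± 206 to 5533 ± 289 (0.84 ± 0.18, 0.0128). In HF+CR against LF+CR 5 of the list were higher and 3 lower, against 5.62% and 3.31% of all genes.

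Of the peroxins, which build peroxisomes, 2 of 16 tested (of 19) fell in LF+CR and 1 in HF+CR, where 3.27% and 2.55% of all genes were lower. Their medians were -0.06 and -0.11. Pex6, an ATPase that recycles the import receptor, fell from 1058 ± 37.5 to 750 ± 154 in LF+CR (-0.51 ± 0.12, 0.0224), and its membrane anchor Pex26 from 365 ± 49.98 to 240 ± 22.3 (-0.57 ± 0.14, 0.0253). In HF+CR, Pex14, a docking protein of the import machine, fell by -0.29 ± 0.08 (0.0453). Pex7, the receptor for a second import signal, passed only in the difference of effects (-0.27 ± 0.07, 0.0405). Pex11a was lower in both restricted groups beside peroxins of which most did not pass.

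Of 18 other peroxisomal proteins tested (of 20), 5 were lower and 1 higher in LF+CR, against 3.27% and 2.3% of all genes. In HF+CR 1 was lower and 2 were higher, against 2.55% and 3.52%. Hao1, a glycolate oxidase, fell from 2468 ± 99.99 to 1903 ± 287 on the low-fat diet (-0.38 ± 0.10, 0.0314) and rose from 2160 ± 168 to 2877 ± 124 on the high-fat diet (0.41 ± 0.10, 0.0232). Agxt, which removes the glyoxylate that Hao1 makes, rose on the high-fat diet (0.72 ± 0.20, 0.0479). Ephx2, an epoxide hydrolase, and Pxmp4, a membrane protein, fell in LF+CR by -0.40 ± 0.06 (0.00115) and -0.45 ± 0.09 (0.00678) and did not pass in HF+CR (0.08 ± 0.06 and 0.07 ± 0.09). In HF+CR against LF+CR 5 of the 18 were higher and 1 lower, against 5.62% and 3.31% of all genes.

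Among other genes of microsomal omega-oxidation (11 of 17 tested), 2 fell in LF+CR and 1 in HF+CR, against 3.27% and 2.55% of all genes. Cyp4a12a, a Cyp4a enzyme of male mouse liver, fell from 2135 ± 258 to 262 ± 124 in LF+CR (-3.03 ± 0.53, 0.00304), against 1082 ± 725 in HF and 1420 ± 457 in HF+CR (0.72 ± 0.53, 0.402). It was higher in HF+CR than in LF+CR (2.41 ± 0.53, 0.0100), where Cyp4a14 was lower. Cyp4v3 fell in LF+CR (-0.44 ± 0.06, 0.000586) and was higher in HF than in LF (0.36 ± 0.06, 0.0123), and Aldh3a2, which oxidises fatty aldehydes, fell in HF+CR (-0.52 ± 0.14, 0.0429). Cyp4f14 passed only in the difference of effects (1.41 ± 0.38, 0.0405). In HF+CR against LF+CR 4 of the 11 were higher and 1 lower, against 5.62% and 3.31% of all genes.

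Other PPAR-alpha targets, mainly of mitochondrial fatty acid oxidation and transport, held the most falls of the 6 lists. In LF+CR 9 of 24 tested (of 27) fell and none rose, against 3.27% and 2.3% of all genes. In HF+CR 7 fell and none rose, against 2.55% and 3.52%. The medians were -0.30 and -0.26. Slc22a5, the carnitine transporter, fell from 767 ± 173 to 373 ± 77.6 (-1.01 ± 0.15, 0.00118) and from 602 ± 32.3 to 386 ± 20.8 (-0.62 ± 0.15, 0.0297). Acot1, a cytosolic thioesterase with near-identical relatives, fell in LF+CR (-1.41 ± 0.36, 0.0305). Cd36, a fatty acid translocase, fell from 2431 ± 368 to 736 ± 143 in HF+CR (-1.71 ± 0.18, 0.000138) and not in LF+CR (0.21 ± 0.18, 0.624). Cidec, a lipid droplet protein, was 359 ± 177 in HF and under the dim threshold on every HF+CR array (66.6 to 74.3), so that its fall (adjusted p = 0.00491) is given no size.

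Of PPAR-alpha and its partners (16 of 18 tested), none changed in LF+CR and only Pparg fell in HF+CR, where 3.27% and 2.55% of all genes were lower. Ppara itself was 1856 ± 204 in LF, 1442 ± 845 in LF+CR, 2537 ± 81.1 in HF and 2075 ± 535 in HF+CR. Its change under restriction was -0.51 ± 0.28 (0.375) and -0.32 ± 0.28 (0.493), and it passed in no comparison. The LF+CR mice spread from 829 to 2406, below and above all LF mice (1628 to 2019). Rxra gave -0.32 ± 0.09 (0.0610) and 0.03 ± 0.09 (0.874). Pparg, a related receptor that is low in normal liver, was 422 ± 48.3 in HF and 190 ± 47.9 in HF+CR (-1.11 ± 0.17, 0.00206), and higher in HF than in LF (0.91 ± 0.17, 0.0189).

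The 8 members did not vary as 1 block. Over 18 arrays the 28 pairs had Pearson correlations of log2 values from -0.52 to 0.77 with a median of 0.20, and from -0.35 to 0.57 with a median of 0.21 after each group's mean was subtracted. Ehhadh and Cyp4a14 were the closest pair (r = 0.77, and 0.49 after subtraction). Vnn1 ran with Crot (0.72), Pex11a (0.70) and Eci2 (0.69), of which Eci2 kept 0.57 after subtraction and Crot and Pex11a 0.04 and 0.01. Abcd2 ran against Crot (-0.52, and -0.23 after subtraction). These points share 6 groups of 3 arrays and the arrays' technical differences, and no p is given.

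**Figure D4:**
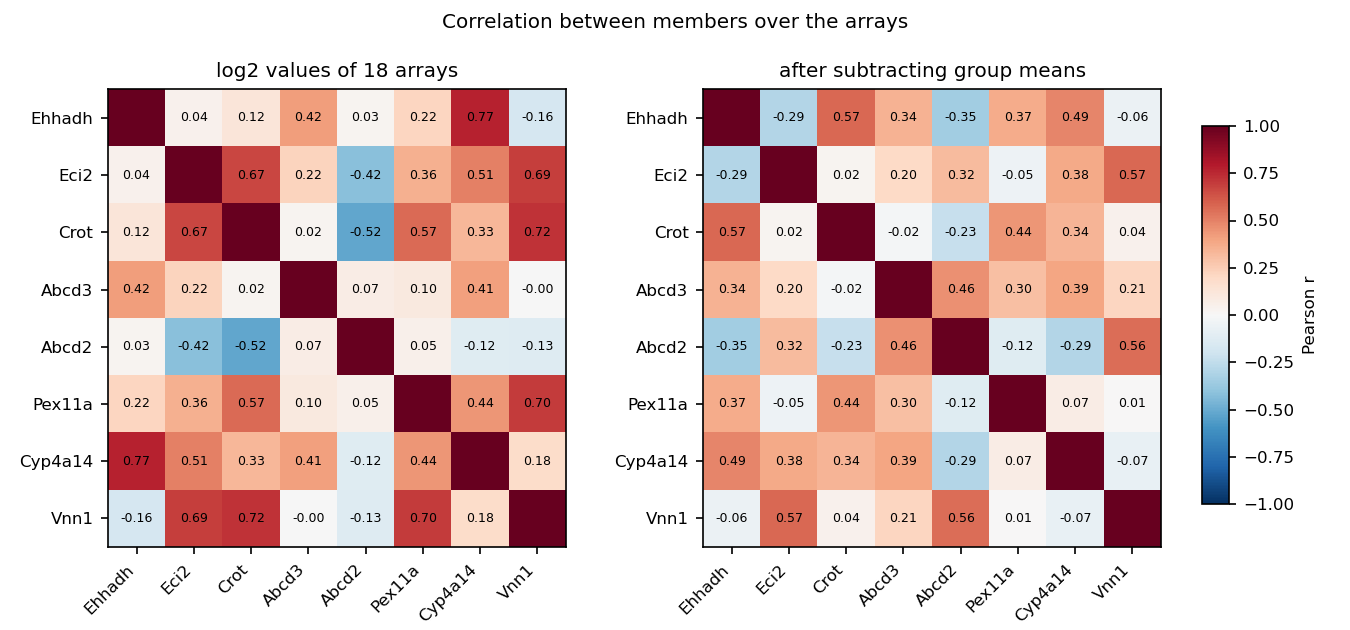
Pearson correlation between log2 values of 8 genes over 18 arrays (left) and after subtracting each group's mean (right), on a colour scale from -1 to 1. The dark cells of Vnn1 with Crot and Pex11a on the left are near 0 on the right, and Ehhadh with Cyp4a14 goes from 0.77 to 0.49.

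The mean of the 8 standardised log2 values was lowest in HF+CR 1 (-1.24) and highest in LF 3 (1.02). Compared with this mean over 18 arrays, the most alike of 14193 other genes were Crat (r = 0.92), the lipase Mgll (0.92), the mitochondrial carnitine carrier Slc25a20 (0.88), Hsdl2 (0.87), Oplah (0.86), Cpt2 (0.86), Slc22a5 (0.85), Gpd1 (0.84), the peroxin Pex13 (0.83) and Rab30 (0.83). Of these 10 genes 7 were in the lists. Without HF+CR 1 and LF 3 their r lay between 0.80 and 0.92. After subtraction of group means the nearest were Tmed5 (0.87), Calcrl (0.86), Cyyr1 (0.85) and Crat (0.82), and 2 of the 10 nearest were in the lists. Crat was the 1 gene among the 10 nearest by both measures. Ppara itself had r = 0.14 with the mean of the members.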

How the data were processed

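The authors measured liver RNA on 18 arrays, 3 per group, each from another mouse. The labels give Trizol extraction and biotinylated cRNA. The deposited values are linear intensities per probe set, and how the authors summarised and normalised them is unknown here. The largest gap between array medians was 0.15254 (log2), and no further scaling was applied. The genes, the lists and the rule for named genes were chosen with earlier results of these data known. That rule names every member with all its probe sets, up to 4 changed genes per list with the largest change over HF vs LF, both restriction comparisons and their difference, Ppara, Rxra and a further gene that is not reported here, and the genes most alike in pattern. Probe sets of 1 gene symbol were used (34945 of 45037), the brightest per gene, and 14201 genes lay above an array's 40th percentile (88.22 to 97.574, the dim threshold) on at least 3 arrays. limma 3.58.1 (R 4.3.3) fitted log2 of the intensity plus 16 with 1 mean per group, and p-values were adjusted by Benjamini-Hochberg. Alternatives changed scaling, offset, filter, probe set choice, variance model, samples and blocks. The fits without the pancreatic or the outlying arrays, with a clock covariate (log2 Arntl minus log2 Dbp) and with all probe sets were added after the data were seen. The code was tested on simulated data. Replicates are separate mice, and 3 per group limit the precision.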

Additional observations from a re-analysis of the deposited data

Results flagged for a closer look

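By limma's test of the difference (adjusted p under 0.05), the effect of restriction differed between the diets for 2 members. It also differed for 12 genes of the lists that the rule for named genes covers and for 3 others. In this test 3.35% of all genes were higher and 2.39% lower. The rule draws in part on this same test, so that the passing of the 12 was partly fixed by how they were chosen. Values are the high-fat minus the low-fat effect on the log2 scale. The difference was -0.89 for Abcd2, whose fall passed on the high-fat diet, and 0.49 for Eci2, whose fall passed on the low-fat diet. Among peroxisomal enzymes it was -0.85 for Acot4 and 1.07 for Nudt7. Hao1 gave 0.80, Pxmp4 0.52 and Ephx2 0.48, all lower in LF+CR than in LF. Of the peroxins, Pex6 gave 0.66 and Pex7 -0.27. The microsomal enzymes Cyp4a12a, Cyp4f14 and Cyp4v3 gave 3.75, 1.41 and 0.50, each in the opposite direction to the -0.20 of Cyp4a14, which did not pass. Cd36 gave -1.92 and Pparg -1.65. The 3 others, named after their values were seen, were Amacr (0.57), Slc27a2 (0.53) and Creb3l3 (0.44).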

How the results depend on the processing

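No member reversed its direction past the threshold under any alternative. Of the single values of members, 1321 kept their side of the threshold under the alternatives chosen at the outset, 47 lost a call and 24 gained one, and under those added later 198, 13 and 5. The counts of members changed moved as follows. They are not set beside the share of all genes that passed in the same fits, so a move is not read as particular to the members. With array weights HF against LF had 1 member, HF+Ex against LF+Ex 3, LF+Ex against LF 1 and the difference of restriction effects 4 (Abcd2, Crot, Eci2 and Vnn1). With only the groups compared in the fit, LF+CR against LF had 1, HF+CR against LF+CR 1, HF+Ex against LF+Ex 2 and the difference 0. Without the 4 arrays with pancreatic transcripts LF+CR against LF had 2 (Crot and Vnn1), HF+CR against HF 1 (Pex11a), HF+CR against LF+CR 2 (Abcd2 and Cyp4a14) and the difference 0. None of these 4 arrays is in HF or HF+CR, so for HF+CR against HF the values stayed and only the test changed. Without the 3 outlying arrays and with arrays centred on their medians the difference had 1 each. HF+Ex against LF+Ex had 1 with the mean of the probe sets, with every probe set and with shared probe sets too. Leaving out single arrays gave 3 to 4 members for LF+CR against LF, 1 to 2 for HF+CR against HF, 1 to 5 for HF+CR against LF+CR, 0 to 3 for the difference of restriction effects and 0 for the other comparisons. Deviations from the group means of same-numbered arrays correlated by -0.05 on average (from -0.41 to 0.33 over 45 pairs), and others by 0.03. Since deviations within a group sum to 0, these averages depend on each other. They do not establish whether replicate numbers pair the arrays. With the replicate number as a block the counts were 3, 2, 5 and 1 in the same order, and 0 elsewhere. The causes were not tested. Calls near the threshold, such as Pex11a in LF+CR and Abcd2 in HF+CR, rest on 3 arrays a group.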
